A study of Homo sapiens with 9 samples.

Results

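The EGR, IER and NR4A early genes are 10 genes that were chosen by symbol: EGR1, EGR2, EGR3, EGR4, IER2, IER3, IER5, NR4A1, NR4A2 and NR4A3. Each symbol matched 1 GENCODE entry of the deposited count table, which holds 112171 annotated features, and all 10 genes were among the 22353 features with enough counts to be tested. Total RNA was sequenced from PANC-1, an established human cell line from a pancreatic ductal carcinoma. The cells were given medium with rakicidin A at 42 nM, with BE-43547A1 at 41 nM, or with the solvent DMSO at 0.04%, and then spent 12 h under hypoxia, with 3 libraries in each group. Rakicidin A is a bacterial natural product of the cyclic lipodepsipeptide class, known for killing hypoxic tumour cells. All groups were hypoxic, so no value here compares hypoxia with normal oxygen. The 2 doses differ slightly, and the labels do not give the DMSO content of the medium that held a compound. Whether the triplicates were separate cultures is not stated, so each p-value reflects variation among libraries that may be technical only.

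Immediate early genes are transcribed within minutes of a stimulus, without new protein having to be made first, and their mRNAs and proteins are usually short-lived. Many are switched on through serum response factor (SRF), which binds CArG boxes together with ternary complex factors of the ELK family or with myocardin-related coactivators, and through CREB, which binds the cyclic AMP response element (CRE). The EGR proteins are zinc finger transcription factors of GC-rich sites. The NR4A proteins are orphan nuclear receptors that bind DNA without a known physiological ligand and can bind as monomers to a site called NBRE. The IER genes share a name given for their rapid induction, and IER3 is not a sequence relative of IER2 and IER5.

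Promoter windows of these genes were searched for the motifs of SRF, CREB and other factors. The search covered 10 RefSeq (GRCh38.p14) windows of 250 bases before an annotated start, for 7 of the genes. IER3 and NR4A2 had no window in the source used, and that of EGR3 is not reported here. Both strands were searched. A CArG box, searched by its name pattern, lay in 2 of the 10 windows, those of EGR1 and the first of 3 for EGR2, against 1.16% of 34943 RefSeq windows of this length. The CRE half-site TGACGT lay in 4 of the 10 windows, the same windows of EGR1 and EGR2 and those of EGR4 and NR4A3, against 7.09% of all windows. These 4 windows are shown because they hold the motifs, with the bases outside GENCODE 29 exons only. Capitals mark CArG boxes and CRE half-sites, and a half-site on the opposite strand reads ACGTCA. Each line runs 5′ to 3′ towards the start of the gene. EGR1 lies at chr5:138465229-138465478 (plus strand), EGR2 at chr10:62816367-62816616 (minus strand), EGR4 at chr2:73293706-73293798 (minus strand) and NR4A3 at chr9:99821635-99821854 (plus strand).
EGR1: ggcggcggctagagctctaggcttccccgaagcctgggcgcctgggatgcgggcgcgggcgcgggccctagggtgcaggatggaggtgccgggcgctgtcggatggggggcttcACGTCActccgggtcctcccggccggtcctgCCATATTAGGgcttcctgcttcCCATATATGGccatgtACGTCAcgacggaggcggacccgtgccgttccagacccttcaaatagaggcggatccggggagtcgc
EGR2: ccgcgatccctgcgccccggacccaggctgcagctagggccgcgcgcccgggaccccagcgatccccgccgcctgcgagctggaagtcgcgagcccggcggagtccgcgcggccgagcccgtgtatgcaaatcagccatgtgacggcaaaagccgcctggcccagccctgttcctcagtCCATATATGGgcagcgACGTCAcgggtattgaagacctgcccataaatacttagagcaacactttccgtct
EGR4: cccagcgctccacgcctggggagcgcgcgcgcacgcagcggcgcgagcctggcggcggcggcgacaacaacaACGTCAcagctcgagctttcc
NR4A3: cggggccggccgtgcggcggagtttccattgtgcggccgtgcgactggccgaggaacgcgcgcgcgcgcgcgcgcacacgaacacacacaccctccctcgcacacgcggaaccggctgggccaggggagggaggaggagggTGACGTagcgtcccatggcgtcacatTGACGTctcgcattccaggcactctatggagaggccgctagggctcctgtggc

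In EGR1 the CArG boxes began 105 and 83 bases before the start and the half-sites 136 and 67 bases before it. In EGR2 a CArG box began 71 bases and a half-site 55 bases before the start. In EGR4 the half-sites began 178 and 110 bases before the start, and in NR4A3 they began 109, 83 and 25 bases before it. The nearer half-site of EGR4 and the nearest of NR4A3 lie in annotated exons and are not in the stretches shown. The EGR site GCGNGGGCG lay in EGR1 itself, against 8.39% of all windows, and the NF-kB site, searched by name, in EGR4, against 5.2%. TATANA, a form of the TATA box, lay in 2 of the 10 windows, those of EGR4 and IER5, against 17.7% of all windows. In EGR4 the NF-kB site began 152 bases and the TATA form 29 bases before the start. Both lie in the 157 bases of that window that are annotated exon. The AP-1 site TGANTCA and the NBRE letters AAAGGTCA lay in none of the 10 windows, against 6.59% and 1.04% of all windows. A match is a stretch of letters and was not measured as a bound site in these cells.

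The libraries held 26203326 to 34870860 counts on features with rakicidin A, 39807220 to 45048999 with BE-43547A1 and 27696394 to 30596594 with DMSO. Levels are given as CPM, which scales each count to its library's total, here adjusted by TMM, whose factors were 0.890 to 0.898 with rakicidin A, 0.963 to 0.989 with BE-43547A1 and 1.14 to 1.15 with DMSO. Each difference comes from edgeR's quasi-likelihood test over all 9 libraries and is called at a Benjamini-Hochberg adjusted p below 0.05 over all 22353 features. Scaled by total counts alone, the median change of all features moved from -0.02 to -0.38 on the log2 scale for rakicidin A minus DMSO, from 0.00 to -0.24 for BE-43547A1 minus DMSO and from -0.02 to -0.14 for rakicidin A minus BE-43547A1. The share of calls that were higher then moved from 49.4 to 28.2%, from 50.2 to 36.3% and from 51.7 to 36.4%. The nuclear RNA MALAT1 lay at 6658 to 7287 CPM with rakicidin A, at 10370 to 11690 CPM with BE-43547A1 and at 4924, 5003 and 8879 CPM with DMSO. The highest DMSO value was in replicate 3, which stood apart from its group: mitochondrial transcripts took 0.520% of its counts, against 0.287 and 0.334% in the other DMSO libraries.

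With rakicidin A, 8 of the 10 early genes were higher than with DMSO, none was lower, and EGR1 and IER2 were not called. Of all features, 31.9% were called higher and 32.7% lower in that comparison. With BE-43547A1, all 10 were higher than with DMSO, where 35.3% of all features were called higher and 35.1% lower. EGR3, EGR4 and NR4A3, counted as higher with each compound, had enough counts to be tested only through the treated libraries. With rakicidin A 9 of the 10 were lower than with BE-43547A1, none was higher and NR4A3 was not called, where 22.5% of all features were called lower and 24.1% higher. The median change over the 10 genes was 1.89 on the log2 scale for rakicidin A minus DMSO, 3.51 for BE-43547A1 minus DMSO and -0.99 for rakicidin A minus BE-43547A1. Over all features the medians were -0.02, 0.00 and -0.02. Both medians of the 10 genes against DMSO include EGR3, EGR4 and NR4A3, as do the counts against DMSO that follow. These 3 genes changed by 2.38, 4.11 and 3.76 with rakicidin A and by 4.38, 5.64 and 4.16 with BE-43547A1, each above the median of the 10. Counting only calls of at least 1 on the log2 scale, 7 genes were higher with rakicidin A than with DMSO (14% of all features), 9 were higher with BE-43547A1 than with DMSO (17.5% of all features) and 5 were lower with rakicidin A than with BE-43547A1 (7.53% of all features). All libraries of the 2 groups lay apart in 8 genes, higher with rakicidin A than with DMSO (33.3% of all features), in 10 genes, higher with BE-43547A1 than with DMSO (35.7% of all features), and in 9 genes, lower with rakicidin A than with BE-43547A1 (28.3% of all features). The first 2 comparisons share the DMSO libraries. In bulk libraries like these, a change in the share of cells that hold a transcript and a change in its amount per cell cannot be told apart.

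**Figure D1:**
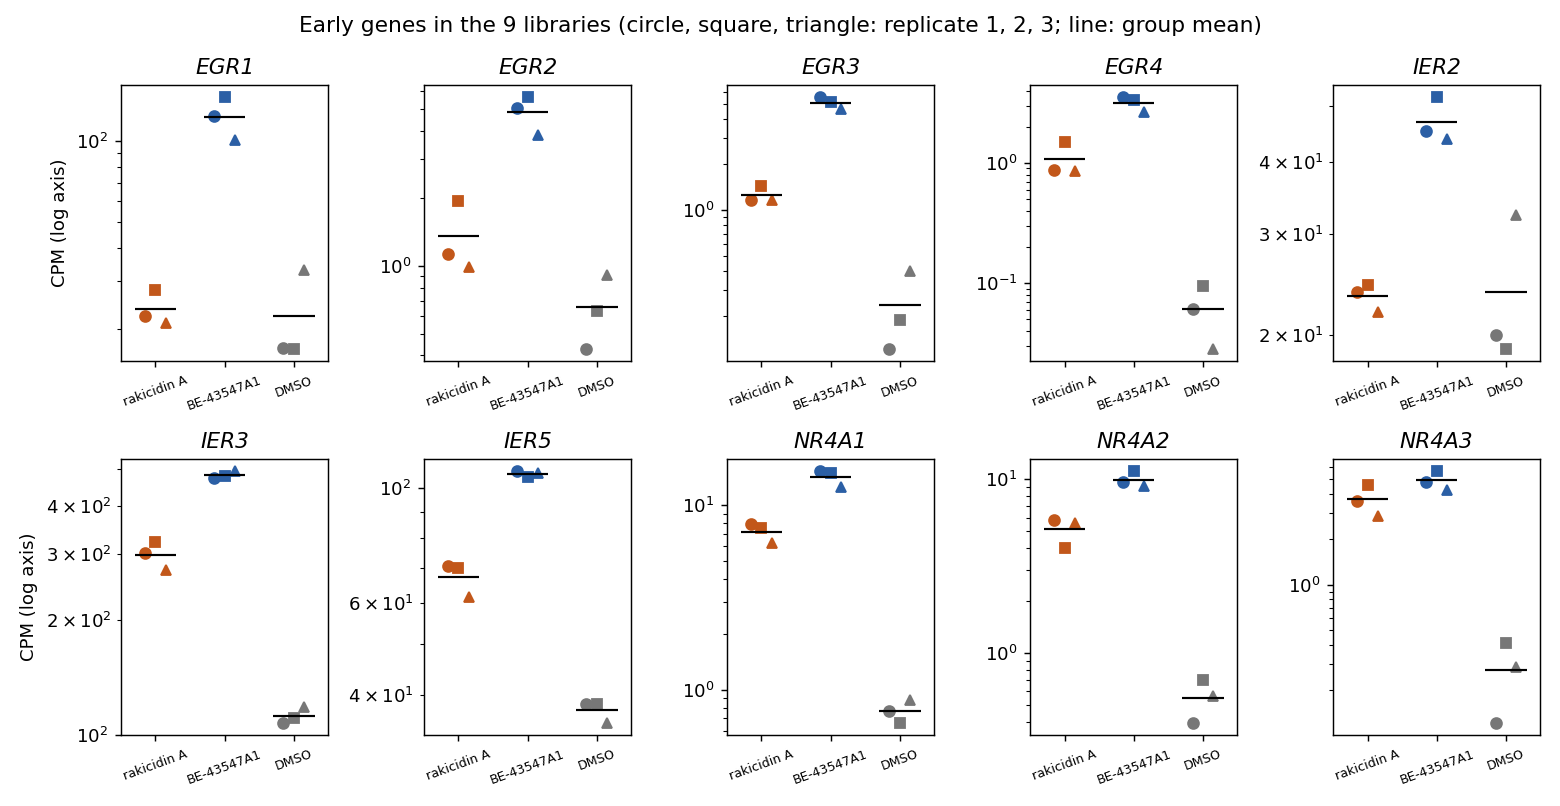
CPM of the 10 early genes in each library on log axes, 1 panel per gene with its own scale (circle, square and triangle for replicates 1, 2 and 3, line for the group mean). In all 10 panels the BE-43547A1 libraries lie above the DMSO libraries, and the rakicidin A libraries overlap DMSO in EGR1 and IER2 and overlap BE-43547A1 in NR4A3.

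EGR1 (ENSG00000120738.7), the best studied of the EGR factors, responds to growth factors and stress. It had 22.2, 27.9 and 21.01 CPM with rakicidin A, 123, 145 and 100.5 CPM with BE-43547A1 and 16.9, 16.8 and 33.2 CPM with DMSO. The BE-43547A1 libraries were all far above the others, while the rakicidin A libraries lay inside the DMSO range, whose top was replicate 3. The change was 0.09 ± 0.20 (log2 ± SE, edgeR adjusted p = 0.716, 95% interval -0.33 to 0.50) with rakicidin A and 2.46 ± 0.19 (edgeR adjusted p = 1.49e-09) with BE-43547A1, both against DMSO. Without DMSO replicate 3, EGR1 was called higher with rakicidin A (0.50, edgeR adjusted p = 0.00223), and with total counts alone its value turned negative (-0.27, edgeR adjusted p = 0.242). It also turned negative without rakicidin A replicate 2 (-0.03), without DMSO replicate 1 (-0.07) or without DMSO replicate 2 (-0.07), with no call.

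EGR2 (ENSG00000122877.9), known for its part in myelination and hindbrain development, had 1.13, 1.95 and 0.988 CPM with rakicidin A, 5.06, 5.63 and 3.82 CPM with BE-43547A1 and 0.428, 0.632 and 0.909 CPM with DMSO. The 3 groups did not overlap, though the lowest rakicidin A library lay close to the highest DMSO library. EGR2 rose with rakicidin A by 1.06 ± 0.31 (edgeR adjusted p = 0.00564) and with BE-43547A1 by 2.87 ± 0.25 (edgeR adjusted p = 8.83e-09). The call with rakicidin A was lost without rakicidin A replicate 2 (0.70, edgeR adjusted p = 0.0772) and with total counts alone (0.71, edgeR adjusted p = 0.0535). The same value was 1.39 without DMSO replicate 3.

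EGR3 (ENSG00000179388.8), which acts in muscle spindle development and in T cells, had 1.17, 1.44 and 1.16 CPM with rakicidin A, 5.51, 5.14 and 4.63 CPM with BE-43547A1 and 0.122, 0.190 and 0.398 CPM with DMSO. The groups did not overlap, and DMSO replicate 3 was again the highest of its group. EGR3 rose by 2.38 ± 0.31 (edgeR adjusted p = 1.93e-06) with rakicidin A and by 4.38 ± 0.24 (edgeR adjusted p = 1.23e-11) with BE-43547A1.

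EGR4 (ENSG00000135625.6), a family member known mostly from the nervous system and the germ line, was almost absent with DMSO. It had 24, 47 and 20 counts with rakicidin A, 156, 136 and 102 counts with BE-43547A1 and 2, 3 and 1 counts with DMSO. In CPM these were 0.873, 1.503 and 0.859 with rakicidin A, 3.51, 3.36 and 2.67 with BE-43547A1 and 0.0611, 0.0948 and 0.0284 with DMSO. The ratio of the summed, scaled counts to DMSO was 18.4 (95% interval 8.14 to 51.5) with rakicidin A and 53.1 (24.2 to 145.5) with BE-43547A1, intervals that cover counting error only. EGR4 was called higher with rakicidin A (edgeR adjusted p = 1.65e-07) and with BE-43547A1 (edgeR adjusted p = 7.16e-11). Among all features its fitted change ranked 140th from the top with rakicidin A and 109th with BE-43547A1. All 3 of its DMSO libraries were below the 0.326 CPM that the filter on low counts asks for, so EGR4 entered the test only through the treated libraries. In EGR3, 2 of the 3 DMSO libraries were below that level, and in NR4A3 1 was. The filter asks for that level in as many libraries as a group holds. EGR3 and NR4A3 thus also entered the test only through treated libraries.

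IER2 (ENSG00000160888.6), which encodes a small nuclear protein, had 23.7, 24.4 and 21.95 CPM with rakicidin A, 45.3, 51.7 and 43.7 CPM with BE-43547A1 and 19.99, 18.9 and 32.3 CPM with DMSO. All rakicidin A libraries lay between the lower pair of DMSO libraries and DMSO replicate 3, and all BE-43547A1 libraries lay above the rest. IER2 rose by 0.98 ± 0.14 (edgeR adjusted p = 3.42e-06) with BE-43547A1. With rakicidin A its change was -0.02 ± 0.14 (edgeR adjusted p = 0.893, 95% interval -0.32 to 0.27). Without DMSO replicate 3 it was called higher with rakicidin A (0.27, edgeR adjusted p = 0.00689), and with total counts alone it was called lower (-0.38, edgeR adjusted p = 0.0254). It was also above 0, with no call, without rakicidin A replicate 3 (0.03) and with limma-voom (0.02).

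IER3 (ENSG00000137331.11), also called IEX-1, is a stress-inducible gene that modulates cell death and is a known target of NF-kB. It had 300.3, 321 and 272 CPM with rakicidin A, 473, 480.4 and 494 CPM with BE-43547A1 and 108, 111 and 119 CPM with DMSO. The 3 groups were wide apart and the spread within each was small. IER3 rose by 1.41 ± 0.06 (edgeR adjusted p = 6.5e-13) with rakicidin A and by 2.10 ± 0.07 (edgeR adjusted p = 2.78e-15) with BE-43547A1.

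IER5 (ENSG00000162783.8) encodes a regulator of the heat shock factor HSF1. It had 70.6, 70.1 and 61.7 CPM with rakicidin A, 108, 105 and 107 CPM with BE-43547A1 and 38.4, 38.4 and 35.4 CPM with DMSO. No 2 groups overlapped, and DMSO replicate 3 was the lowest DMSO library here. IER5 rose by 0.85 ± 0.06 (edgeR adjusted p = 8.26e-10) with rakicidin A and by 1.51 ± 0.06 (edgeR adjusted p = 1.73e-13) with BE-43547A1.

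NR4A1 (ENSG00000123358.15), also called NUR77, is known in T cell selection and in cell death. It had 7.86, 7.48 and 6.23 CPM with rakicidin A, 15.3, 14.9 and 12.6 CPM with BE-43547A1 and 0.764, 0.663 and 0.881 CPM with DMSO. All treated libraries were far above DMSO. NR4A1 rose by 3.22 ± 0.16 (edgeR adjusted p = 3.09e-12) with rakicidin A and by 4.20 ± 0.15 (edgeR adjusted p = 1.91e-14) with BE-43547A1.

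NR4A2 (ENSG00000153234.9), or NURR1, is best known for the development of dopamine neurons. It had 5.82, 4.03 and 5.58 CPM with rakicidin A, 9.60, 11.1 and 9.12 CPM with BE-43547A1 and 0.397, 0.695 and 0.568 CPM with DMSO. The groups did not overlap, and rakicidin A replicate 2, the highest of its group in 7 of the 10 genes, was the lowest here. NR4A2 rose by 3.20 ± 0.21 (edgeR adjusted p = 1.4e-10) with rakicidin A and by 4.16 ± 0.19 (edgeR adjusted p = 7.34e-13) with BE-43547A1.

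NR4A3 (ENSG00000119508.13), or NOR1, the third NR4A receptor, had 3.60, 4.57 and 2.88 CPM with rakicidin A, 4.84, 5.66 and 4.26 CPM with BE-43547A1 and 0.122, 0.411 and 0.284 CPM with DMSO. Its treated groups overlapped each other and lay well above DMSO. NR4A3 rose by 3.76 ± 0.28 (edgeR adjusted p = 1.14e-09) with rakicidin A and by 4.16 ± 0.27 (edgeR adjusted p = 1.04e-10) with BE-43547A1. In rank from the top the 3 receptors stood 321st, 325th and 190th of 22353 with rakicidin A and 306th, 313th and 310th with BE-43547A1, in the order NR4A1, NR4A2 and NR4A3.

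**Figure D2:**
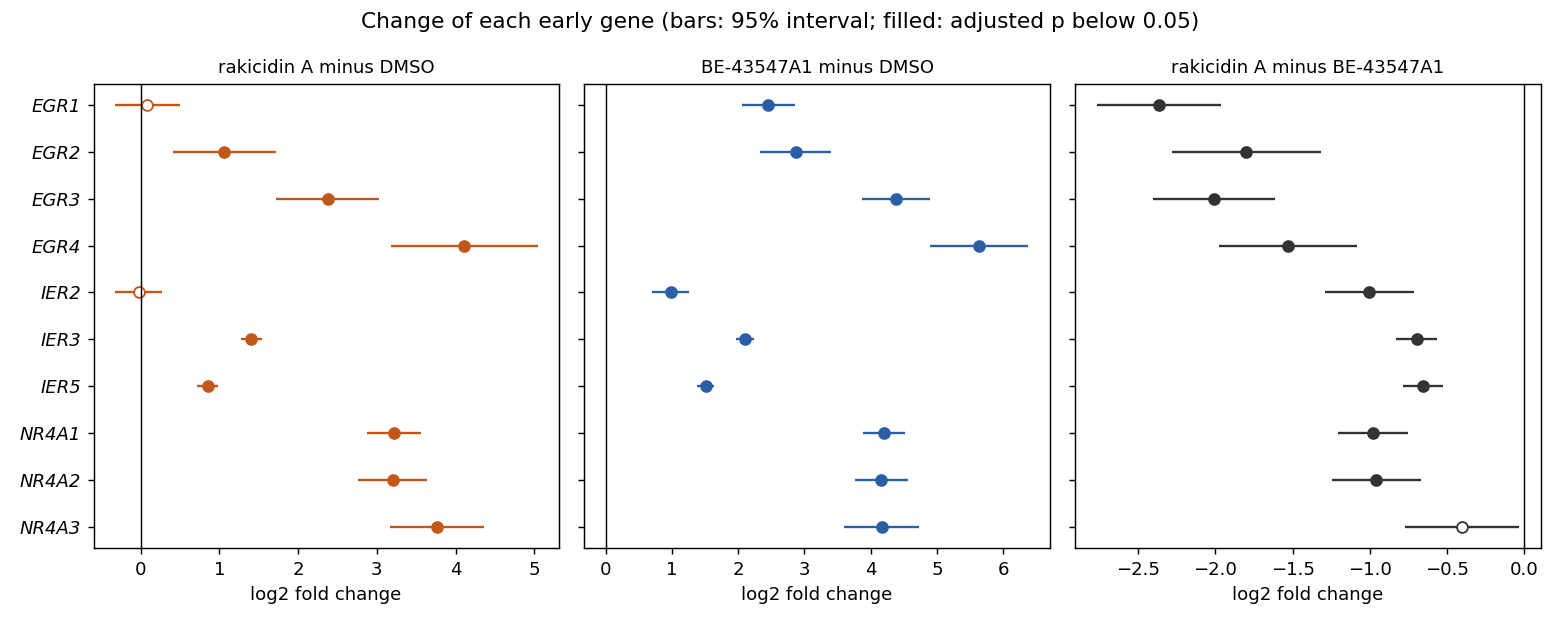
Log2 fold change of each early gene in the 3 comparisons with its 95% interval (filled where the edgeR adjusted p is below 0.05). With rakicidin A against DMSO only EGR1 and IER2 are open symbols, none is open with BE-43547A1 against DMSO, and only NR4A3 is open in the direct comparison.

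The direct comparison tested whether the compounds, at 42 and 41 nM, left different levels of these transcripts. EGR1 averaged 23.7 ± 3.70 CPM with rakicidin A and 123 ± 22.3 CPM with BE-43547A1 (mean ± SD, n = 3 libraries each), a difference of -2.37 ± 0.19 on the log2 scale (± SE, edgeR adjusted p = 1.78e-08). That difference ranked 151st from the bottom of 22353 features. EGR3 averaged 1.25 ± 0.160 CPM with rakicidin A and 5.09 ± 0.443 CPM with BE-43547A1 (-2.01 ± 0.19, edgeR adjusted p = 9.57e-08). EGR2 differed by -1.80 ± 0.23 (edgeR adjusted p = 4.05e-06) and EGR4 by -1.53 ± 0.21 (edgeR adjusted p = 1.04e-05). The 4 EGR genes thus had the largest differences of the 10.

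IER2 averaged 23.4 ± 1.28 CPM with rakicidin A and 46.9 ± 4.23 CPM with BE-43547A1, a difference of -1.003 ± 0.137 (edgeR adjusted p = 8.9e-06). NR4A1 averaged 7.19 ± 0.854 CPM with rakicidin A and 14.2 ± 1.47 CPM with BE-43547A1, and it differed by -0.98 ± 0.11 (edgeR adjusted p = 8e-07). NR4A2 differed by -0.96 ± 0.14 (edgeR adjusted p = 1.47e-05). IER3 (-0.70 ± 0.06, edgeR adjusted p = 6.18e-08) and IER5 (-0.66 ± 0.06, edgeR adjusted p = 9.42e-08) had smaller differences with little spread. NR4A3 averaged 3.68 ± 0.850 CPM with rakicidin A and 4.92 ± 0.702 CPM with BE-43547A1, a difference of -0.40 ± 0.18 that missed the threshold (edgeR adjusted p = 0.07), and the interval, -0.77 to -0.03, does not show equal levels. It was called lower with total counts alone (-0.52, edgeR adjusted p = 0.0231), without the filter on low counts (-0.42, edgeR adjusted p = 0.0335), in a fit of the 6 compound libraries (-0.40, edgeR adjusted p = 0.0289), without rakicidin A replicate 2 (-0.59, edgeR adjusted p = 0.0243) and without BE-43547A1 replicate 3 (-0.49, edgeR adjusted p = 0.0463). It was -0.25 without rakicidin A replicate 3. The other 9 differences kept their sign and an adjusted p below 0.05 in each of the 17 alternatives that recomputed them, and 5 of the 9 reached 1 on the log2 scale.

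**Figure D3:**
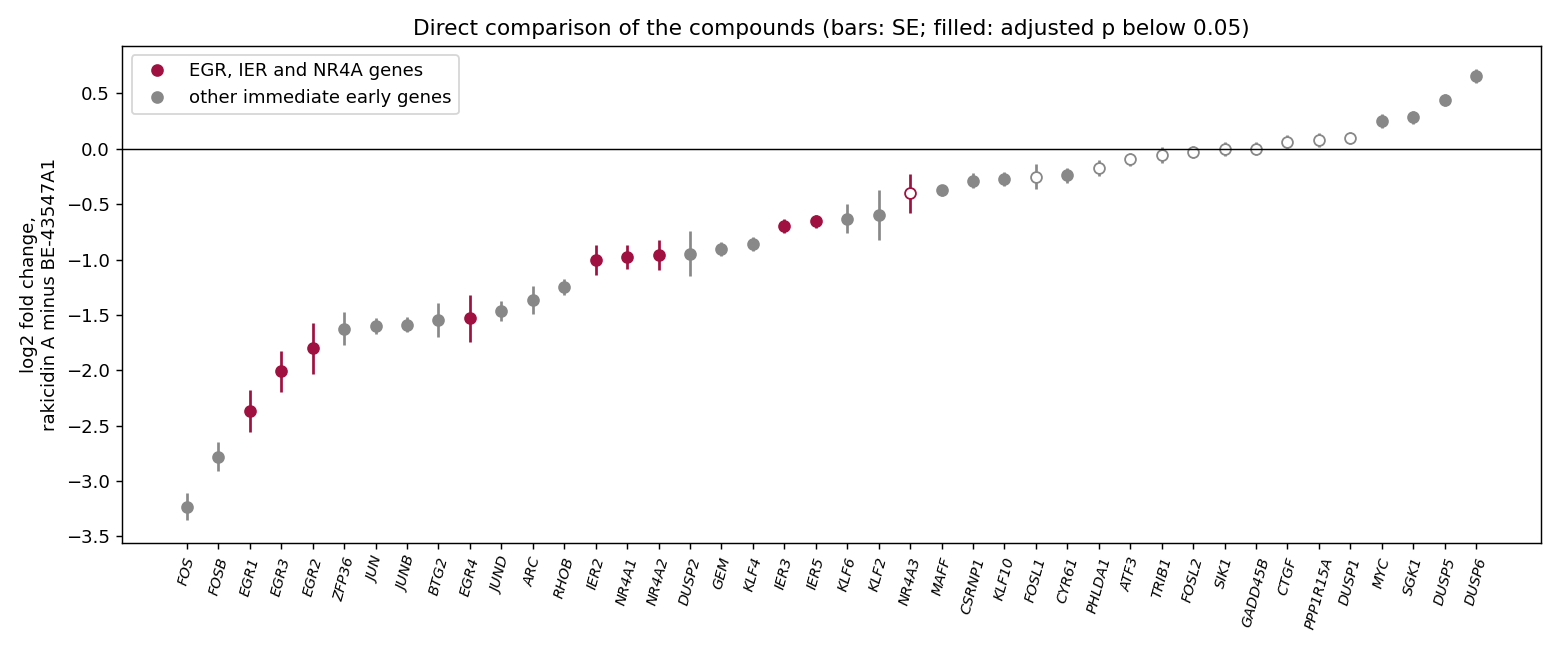
Log2 fold change of rakicidin A minus BE-43547A1, with SE bars, for the 10 early genes (red) and 32 other immediate early genes (grey), in order of value (filled where the edgeR adjusted p is below 0.05). The values run from FOS at -3.23 to DUSP6 at 0.66, and all 10 red symbols lie below 0.

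Levels of different genes were set side by side as CPM per kilobase of merged GENCODE 29 exons. IER3 was the highest of the 10 in every group, at 219.5 CPM per kilobase with rakicidin A, 356 with BE-43547A1 and 82.9 with DMSO. EGR1 was second with BE-43547A1, at 39.2 CPM per kilobase, ahead of IER5 at 25.4 and IER2 at 15.3, and no neighbours among these 4 overlapped. With rakicidin A the order was IER3, IER5 at 16.1, then IER2 at 7.61 and EGR1 at 7.56, which overlapped. With DMSO IER5 at 8.93, IER2 at 7.73 and EGR1 at 7.12 CPM per kilobase overlapped in a row. The other 6 genes stayed below these in every group. They ran from NR4A2 at 1.297 to EGR3 at 0.258 with rakicidin A, from NR4A2 at 2.51 to NR4A3 at 0.779 with BE-43547A1 and from EGR2 at 0.178 to EGR4 at 0.0259 with DMSO. Among them with rakicidin A, NR4A1 and NR4A3 were the only neighbours apart. With BE-43547A1 the neighbours EGR4, EGR2 and EGR3 overlapped, and with DMSO the neighbours NR4A1 and EGR3 were the only ones apart. GENCODE 29 has a gene on the opposite strand over EGR3, IER2, IER3 (IER3-AS1) and NR4A1. The strand setting of the counting is not given in the sources used here, so reads of such partners cannot be told apart from those of these 4 genes.

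Single libraries were high in several of the genes at once. Rakicidin A replicate 2 was the highest of its group in 7 of the 10 and in 25 of 32 other immediate early genes, against 33.3% of all features, and rakicidin A replicate 3 was the highest in none of the 10. BE-43547A1 replicate 2 was the highest in 5 of the 10 and in 18 of the 32, against 31.9% of all features. DMSO replicate 3 was the highest in 6 of the 10 and in 20 of the 32, against 35.5% of all features. It was 1.97 times the mean of the other DMSO libraries in EGR1, 1.72 times in EGR2, 2.55 times in EGR3 and 1.66 times in IER2. The ratio was 1.08 in IER3, 1.23 in NR4A1, 1.04 in NR4A2 and 1.07 in NR4A3. In IER5 (0.921) and EGR4 (0.365, on few counts) DMSO replicate 3 was the lowest of its group. DMSO replicate 3 is also the library with high MALAT1 and mitochondrial shares, and the part of that in these values was not tested.

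**Figure D4:**
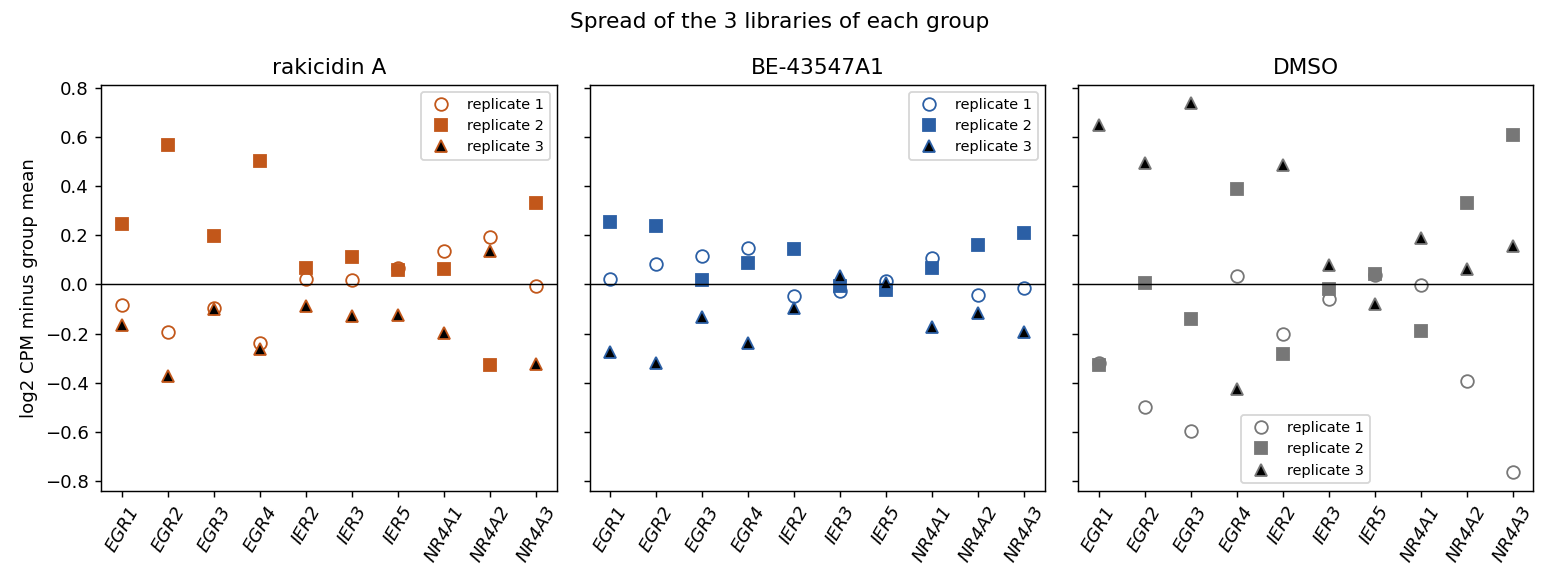
Log2 CPM of each library minus its group mean for the 10 early genes, 1 panel per group (circle, square and triangle for replicates 1, 2 and 3). Rakicidin A replicate 2 lies 0.57 above its group mean in EGR2, the BE-43547A1 libraries lie within 0.32 of their mean throughout, and DMSO replicate 3 lies 0.65 above its mean in EGR1 and 0.74 above it in EGR3.

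**Figure D5:**
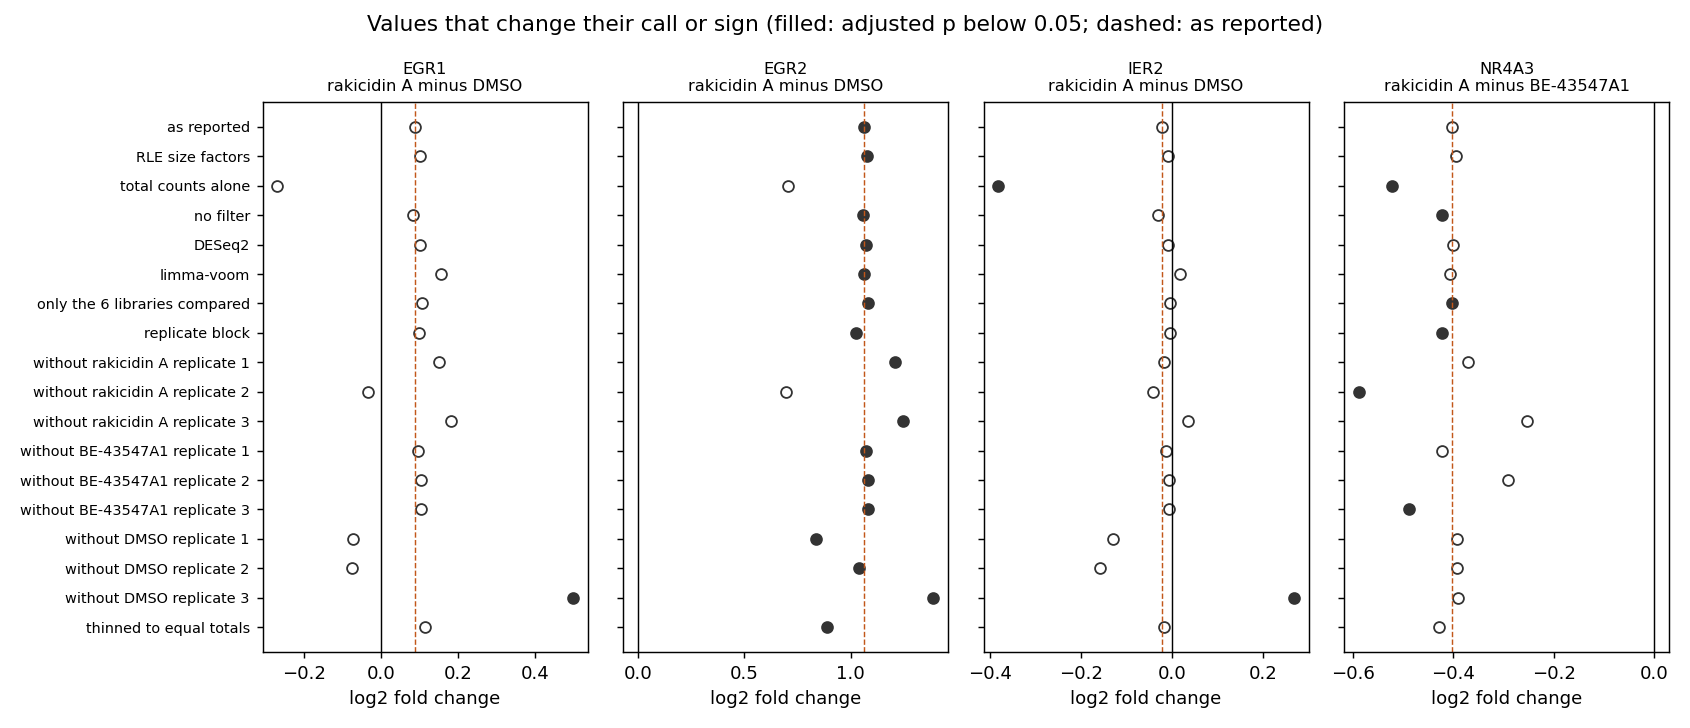
Log2 fold change of the 4 values that changed their call or sign, as reported and under each alternative (filled where the adjusted p is below 0.05, dashed line at the reported value). EGR1 with rakicidin A runs from -0.27 to 0.50, EGR2 from 0.70 to 1.39, IER2 from -0.38 to 0.27, and the NR4A3 difference between the compounds from -0.59 to -0.25.

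Of the genes for proteins that act with the EGR factors, NAB2, which encodes a corepressor that EGR proteins themselves induce, had 27.8 ± 1.55 CPM with rakicidin A, 35.2 ± 0.648 CPM with BE-43547A1 and 21.3 ± 0.873 CPM with DMSO (mean ± SD, n = 3 libraries each). It rose by 0.38 ± 0.07 (edgeR adjusted p = 6.99e-05) with rakicidin A, a call lost with total counts alone (0.03), and by 0.72 ± 0.07 (edgeR adjusted p = 1.46e-08) with BE-43547A1, and it was lower with rakicidin A than with BE-43547A1 (-0.34 ± 0.07, edgeR adjusted p = 0.000321). Its relative NAB1 was not called in any comparison (-0.09, -0.02 and -0.07), and with total counts alone it was called lower in all 3 (-0.45, -0.26 and -0.19). Without DMSO replicate 3 it was called lower with rakicidin A (-0.13, edgeR adjusted p = 0.027). WT1, a zinc finger factor whose sites resemble those of EGR1, fell by 1.18 with rakicidin A (8.83 ± 0.425 CPM) and by 1.56 with BE-43547A1 (6.80 ± 0.665 CPM), against 19.99 ± 1.35 CPM with DMSO.

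IER5L, a sequence relative of IER5, went the other way from it against DMSO. It had 5.78 ± 0.693 CPM with rakicidin A, 8.29 ± 0.147 CPM with BE-43547A1 and 33.6 ± 1.202 CPM with DMSO. It fell by 2.53 ± 0.09 (edgeR adjusted p = 1.5e-14) and by 2.02 ± 0.08 (edgeR adjusted p = 1.22e-13). Between the compounds IER5L was lower with rakicidin A (-0.51 ± 0.095, edgeR adjusted p = 0.000225), as IER5 was. IER3IP1, a small protein of the endoplasmic reticulum that binds IER3, rose with rakicidin A by 0.46 ± 0.08 (edgeR adjusted p = 7.7e-05), a call lost with total counts alone (0.10). With BE-43547A1 it changed by -0.08 and was not called, though it was called lower with total counts alone (-0.32) and without DMSO replicate 3 (-0.17, edgeR adjusted p = 0.0498). The values of IER3IP1 are from the first listed of its 2 GENCODE entries. Of the retinoid X receptors, which pair with NR4A1 and NR4A2, RXRA fell by 1.16 ± 0.07 (edgeR adjusted p = 1.11e-10) with rakicidin A and by 1.01 ± 0.07 (edgeR adjusted p = 4.47e-10) with BE-43547A1. RXRB rose by 1.03 ± 0.08 and by 0.64 ± 0.08, and RXRG had too few counts to be tested.

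Of 15 genes of SRF, its cofactors, the CREB group and MEF2, 12 were higher and 2 lower with rakicidin A than with DMSO (median 0.77). With BE-43547A1, 11 were higher and 1 lower than with DMSO (median 0.74). Of all features, 31.9% were called higher and 32.7% lower with rakicidin A, and 35.3 and 35.1% with BE-43547A1. Between the compounds 7 of the 15 were higher and 1 lower with rakicidin A (median 0.17), against 24.1 and 22.5% of all features. The count of higher genes was 4 without BE-43547A1 replicate 1 and 4 with total counts alone. The lower gene was SRF itself (-0.17), whose call was lost without rakicidin A replicate 1 (-0.18), rakicidin A replicate 3 (-0.13) or BE-43547A1 replicate 2 (-0.13). The count of lower genes against DMSO with rakicidin A was 1 without DMSO replicate 3, rakicidin A replicate 1 or rakicidin A replicate 3, while that between the compounds was 2 without BE-43547A1 replicate 3, DMSO replicate 1 or DMSO replicate 3. With total counts alone 4 genes were lower with rakicidin A than with DMSO, 4 with BE-43547A1 than with DMSO and 3 with rakicidin A than with BE-43547A1. SRF had 100.5 ± 4.43 CPM with rakicidin A, 113 ± 6.03 CPM with BE-43547A1 and 50.7 ± 2.41 CPM with DMSO. Its rises were 0.99 ± 0.06 (edgeR adjusted p = 5.91e-11) and 1.16 ± 0.06 (edgeR adjusted p = 5.28e-12). The ternary complex factors ELK1 (0.93 and 0.96) and ELK3 (1.64 and 0.99) rose with rakicidin A and with BE-43547A1. ELK4 rose by 0.20 with rakicidin A, a sign that turned with total counts alone (-0.16), and was not called with BE-43547A1 (0.01), though it was called lower there with total counts alone (-0.22, edgeR adjusted p = 0.00273). Of the myocardin-related coactivators MKL1 rose (0.62 and 0.74) and MKL2 fell (-0.76 and -1.02).

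Of 33 other immediate early genes, 32 could be tested. With rakicidin A 27 were higher and 4 lower than with DMSO (median 1.82), and with BE-43547A1 31 were higher and 1 lower than with DMSO (median 2.13). Between the compounds, 4 were higher and 18 lower with rakicidin A (median -0.28). Over all features the shares called higher and lower were 31.9 and 32.7%, 35.3 and 35.1%, and 24.1 and 22.5%, in the same order. FOS, a partner of JUN in the AP-1 factor, had 10.99, 13.3 and 10.5 CPM with rakicidin A, 118, 124 and 87.3 CPM with BE-43547A1 and 27.7, 24.9 and 22.8 CPM with DMSO. All rakicidin A libraries were below DMSO and all BE-43547A1 libraries above it, with changes of -1.11 ± 0.12 (edgeR adjusted p = 2.88e-07) and 2.13 ± 0.11 (edgeR adjusted p = 5.34e-12). JUNB fell with rakicidin A (-0.30 ± 0.07) and rose with BE-43547A1 (1.29 ± 0.07). FOSB (1.55 and 4.33), FOSL1 (0.71 and 0.96), FOSL2 (1.78 and 1.81) and JUN (2.05 and 3.65) rose with rakicidin A and with BE-43547A1. Named after their values were seen, DUSP2 (-1.99) and ZFP36 (-0.41) were the other 2 lower genes with rakicidin A, KLF2 (0.48) was the gene not called, and DUSP2 (-1.04) was the lower gene with BE-43547A1. The call of ZFP36 was lost with DESeq2 (-0.39), without rakicidin A replicate 1 (-0.39) or 3 (-0.36), and without DMSO replicate 3 (-0.12). The genes higher with rakicidin A than with BE-43547A1 were MYC (0.25), SGK1 (0.29), DUSP5 (0.44) and DUSP6 (0.66), of which MYC was not called with total counts alone (0.13).

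Of 12 genes described in other cells as EGR1 targets, 9 were higher and 2 lower with rakicidin A than with DMSO (median 0.78), and 9 were higher and 3 lower with BE-43547A1 than with DMSO (median 0.95). Between the compounds 3 were higher and 5 lower with rakicidin A (median -0.19). Over all features the shares called higher and lower were 31.9 and 32.7%, 35.3 and 35.1%, and 24.1 and 22.5%, in the same order. With total counts alone 4 of the 12 genes were lower with rakicidin A than with DMSO. The tissue factor gene F3 (2.55 and 2.14) and the adhesion molecule gene ICAM1 (2.06 and 2.06) rose with rakicidin A and with BE-43547A1, and the growth factor gene PDGFB fell (-2.14 and -1.62). TGFB1 was not called with rakicidin A (0.14), except without DMSO replicate 3 (0.31, edgeR adjusted p = 0.00605), and rose with BE-43547A1 (0.80). The growth factor gene PDGFA rose with each compound (0.18 and 0.51). Its call with rakicidin A was lost with no filter (0.17) and without rakicidin A replicate 1 (0.15) or DMSO replicate 2 (0.14). The rakicidin A values of TGFB1 and PDGFA turned sign with total counts alone (-0.22 and -0.18).

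The genes most like each early gene were sought among 12932 other GENCODE genes, by the root mean square (RMS) difference of centred log2 CPM over the 9 libraries. The libraries share groups, so likeness here describes level patterns. Nearest to EGR1 were SERINC4 (0.27) and ARL14 (0.32). Near EGR2 was SPNS1 (0.30). Nearest to EGR3 were PHKG1 (0.30) and KDM6B (0.30), and to EGR4 TNFSF14 (0.22) and ACVR1C (0.25). Log2 CPM here holds a prior count of 2, which narrows differences where counts are few, as for EGR3, EGR4 and NR4A3 with DMSO. Against DMSO, TNFSF14 rose by 5.81 with rakicidin A and 7.25 with BE-43547A1, and EGR4 by 4.11 and 5.64. IER2 was near EPHX1 (0.13). IER3 was nearest to SMCR8 (0.086) and REL (0.088), and IER5 to MLF1 (0.071) and ING1 (0.10). NR4A1 was nearest to ALOXE3 (0.15) and ARC (0.18), NR4A2 to CNN1 (0.21) and GIPR (0.22), and NR4A3 to ASIC4 (0.32) and CXCL3 (0.33). Among the early genes themselves the closest pairs were IER3 with IER5 (0.28), NR4A1 with NR4A2 (0.29) and EGR1 with EGR2 (0.39), and the farthest was EGR4 with IER2 (1.71).

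The labelled cell type was checked by markers. The 7 epithelial and PANC-1 markers summed to 6669 to 6859 CPM with rakicidin A and 8410 to 9087 CPM with BE-43547A1. With DMSO they summed to 7323 to 7656 CPM. VIM made up most of each sum, at a mean of 4296, 5237 and 4501 CPM in that order. EPCAM averaged 14.7, 18.5 and 18.9 CPM, and KRT7 and CDH1 less. Against DMSO, 4 of the 7 were called lower and none higher with rakicidin A (32.7 and 31.9% of all features). With BE-43547A1, 4 were called higher and 1 lower (35.3 and 35.1% of all features). The 6 leukocyte markers summed to 2.43 to 2.88 CPM with rakicidin A, 3.61 to 4.43 CPM with BE-43547A1 and 1.68 to 2.13 CPM with DMSO. CD3E was at 0 in every library, and PTPRC had 3, 5 and 1 counts over the 3 groups in that order. ITGAM averaged 1.72, 2.46 and 1.54 CPM, CD68 0.698, 1.02 and 0.251 CPM, and CD14 0.102, 0.565 and 0.120 CPM. These 3 could be tested. Against DMSO, 1 was called higher with rakicidin A and 3 with BE-43547A1 (31.9 and 35.3% of all features), and none was called lower. The 5 stromal and endothelial markers found in the table summed to 5.68 to 7.43 CPM with rakicidin A and 7.32 to 9.09 CPM with BE-43547A1. With DMSO they summed to 9.79 to 13.8 CPM. COL1A1 averaged 3.399, 4.483 and 7.307 CPM over the 3 groups in that order, and CDH5 had 1, 4 and 2 counts. Of the 3 that could be tested, 2 were called lower than DMSO with each compound and none higher (32.7 and 35.1% of all features lower). These were COL1A1 (-1.12) and THY1 (-0.52) with rakicidin A, and COL1A1 (-0.704) and COL3A1 (-0.51) with BE-43547A1. The part of these levels in the changes of the early genes was not tested.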

How the data were processed

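Total RNA of 9 PANC-1 libraries was sequenced as paired reads of 76 bases, per the labels' protocols. The submitters' processing notes name TopHat2, HTSeq, GRCh37 and hg19, with no settings. Values deposited by the authors are raw counts per feature, without normalization. The 5 entries that name no gene were left out of library sizes, and relative to all counts no-feature reads made up 16.4 to 20.8%, reads with several placements 19.1 to 22.4% and ambiguous reads 2.65 to 2.94%.

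Counts were tested in R 4.3.3 with edgeR 4.0.16 (filterByExpr, TMM, quasi-likelihood, 1 mean per group, 6 residual degrees of freedom), and log CPM used a prior count of 2. Each SE divides the absolute log2 change by the root of its F statistic, and intervals are at 95%. The pipeline was tested on simulated data. No pair of libraries in a group agreed within sampling noise (chi-square per gene 3.15 to 20.0). Alternatives were DESeq2 1.42.0, limma-voom (limma 3.58.1), RLE or total counts in place of TMM, no filter, the 6 libraries compared, the replicate block, calls of at least 1 in log2, omitting each library and, added after seeing the data, thinning to 26203326 counts.

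The early genes and lists were chosen with earlier results of these data known. All 10 early genes were named, lists of up to 3 genes in full, the first 6 genes of longer lists, and the 2 genes nearest to each early gene, less some that are not reported here. Figures were drawn with matplotlib 3.10.9.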

Additional observations from a re-analysis of the deposited data

How the results depend on the processing

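Of 510 values of the early genes under the 17 alternatives that recompute them, 493 kept their direction and their side of the threshold, and 599 of 648 list counts under 18 alternatives stayed within 1.5 times their reported value. The exceptions were EGR1, EGR2 and IER2 for rakicidin A minus DMSO and NR4A3 between the compounds. With total counts alone, EGR1 was -0.27, EGR2 0.71, IER2 -0.38 and NR4A3 -0.52 (log2, edgeR adjusted p = 0.242, 0.0535, 0.0254 and 0.0231), and 1 early gene was called lower with rakicidin A than with DMSO. The other scaling moves all 3 medians by over 0.1. With 1 library left out, EGR1 ranged from -0.07 (-0.0749) to 0.50, EGR2 from 0.70 to 1.39, IER2 from -0.16 to 0.27 and NR4A3 from -0.59 to -0.25. These turned negative for EGR1 without rakicidin A replicate 2 (-0.0347) and without DMSO replicate 1 (-0.0744), and positive for IER2 without rakicidin A replicate 3 (0.0337). IER2 was 0.0166 with limma-voom. NR4A3 was called lower without the filter (-0.42) and in the fit of 6 libraries (-0.40). Calls of at least 1 on the log2 scale left 6211, 7075 and 2167 features and 5 early genes lower with rakicidin A than with BE-43547A1. Same-numbered libraries correlated at -0.0566 to 0.122, so the numbers were not taken to pair the samples. With the replicate block NR4A3 was -0.42 (edgeR adjusted p = 0.0263) and no other early gene changed its call. Thinning to equal totals changed no call. Low counts limit EGR3, EGR4 and NR4A3 with DMSO, and the causes of the changes with the processing were not tested.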
